A study of Mus musculus with 24 samples.

Results

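Brown adipose tissue (BAT) was compared with the ventromedial hypothalamus (VMH) in control mice kept on a high fat diet (HFD), using 3 BAT and 3 VMH arrays selected by their sample titles, 6 of the 24 arrays of the series. The series holds both tissues of control mice and of Gfap-Bmal1 cKO mice, in which the clock gene Bmal1 is conditionally deleted, on standard diet (SD) or HFD for 16 weeks, with 3 arrays in each of 8 groups. All mice compared here were of the genotype labelled control, also written WT in the titles, and all had received HFD. Total RNA was extracted with Trizol from 20 mg of frozen BAT and from VMH cut out of 100 µm cryostat brain sections, and was measured on Affymetrix arrays. The labels used here state no strain, sex, age or promoter construct of the cKO mice. Nor do they say whether arrays of one group come from different animals. The p-values therefore reflect array-to-array spread within a tissue, some of which may be technical. Tissue and everything that differed in its handling, from dissection to RNA yield, cannot be told apart.

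Brown fat burns fatty acids in densely packed mitochondria, where uncoupling protein 1 lets protons return without making ATP, so that the energy leaves as heat. The VMH is a nucleus of mostly glutamatergic hypothalamic neurons that senses energy state and drives sympathetic outflow, including outflow to brown fat. Both samples were pieces of whole tissue, so vessels, immune cells and supporting cells were measured with the adipocytes, neurons and glia. In such bulk samples a smaller number of cells of a type and less RNA per cell cannot be told apart.

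The deposited values are log2 signals, and their array medians lay between 4.03 and 4.07 in BAT and between 5.37 and 5.41 in VMH. The 6 arrays were therefore quantile-normalised, which gives every array the same distribution, and 19799 genes whose mean reached the median of the table (4.72) in at least 1 tissue were tested with limma. A gene was called higher in a tissue when its difference was at least 1 on the log2 scale with a Benjamini-Hochberg adjusted p under 0.05. Rank correlations over all features were 0.949 to 0.955 among the BAT arrays, 0.985 to 0.986 among the VMH arrays and 0.722 to 0.734 between tissues. Signals end at a ceiling near 19.93 that 39 tested genes reached on every BAT array, 11 of them on all 6 arrays. Where the VMH arrays lay below the ceiling, the difference of such a gene can only be too small. For the 11 the difference is not known. Where the mean of a gene in one tissue lay under 4.72, it was counted as dim there, and its difference is given as a lower bound measured from 4.72, written "at least". Signals were not calibrated against RNA amounts, so differences are given in log2 units and not as folds, and the signal of one gene was not compared with that of another.

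Of the genes tested, 7086 (35.8%) were called higher in BAT and 3659 (18.5%) higher in VMH, 54.3% in either direction; with the adjusted p alone the shares were 58.6% and 28.6%. These shares depend on how the arrays are brought to one scale: with the deposited values unchanged they were 11.4% and 51.9%, and the median difference over the genes tested, BAT minus VMH, was 0.59 after quantile normalisation and -0.89 as deposited. The genes called in the same direction on both scales were 12% for BAT and 18.5% for VMH, and each count below is followed by the number that held on both scales. All 3659 genes called higher in VMH kept that call as deposited, where values lie further toward VMH. The second count therefore tests calls toward BAT and adds nothing for calls toward VMH. In 88.7% of the genes tested the BAT and VMH arrays did not overlap. A gene that was dim in one tissue entered the test through the other, so its direction was set by the filter: 3181 of the genes tested were dim in VMH and 2256 in BAT. Counts and medians of lists with many such members are therefore descriptions. Dim in BAT were 14 of 19 VMH neuron genes, 18 of 29 general neuron genes, 13 of 15 glutamate receptors and 8 of 13 GABA and glycine receptors. So were 15 of 22 voltage-gated channels and 9 of 16 peptide genes. Dim in VMH were 10 of 20 brown adipocyte genes, 14 of 24 adipocyte genes and 16 of 22 skeletal muscle genes. So were 5 of 8 lymphocyte and class II genes and 3 of 4 blood cell genes, while 8 of 12 brain matrix genes were dim in BAT. Other lists below also hold such members. A gene list is read against these shares, and its median difference against 0.59. With dim genes set at their lower bounds the median over all genes was 0.43, and list medians moved toward 0 or not at all, for example to 8.13 for brown adipocyte genes, -6.30 for glutamate receptors, -2.53 for VMH neurons and 1.51 for Hox genes, none changing sign. Of the tested genes named below, 202 were called, with adjusted p between 2.22e-10 and 0.0125 in limma, and in none of these did the arrays of the tissues overlap.

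The 12 largest differences toward BAT included Ucp1 and several genes of fat uptake and storage. Ucp1, the uncoupling protein that defines brown adipocytes, gave 19.90 on each of the 3 BAT arrays, at the ceiling, and 3.44, 3.70 and 3.63 on the VMH arrays, a difference of at least 15.18 (adjusted p = 2.36e-10). Fabp4, the fatty acid binding protein of adipocytes, was also at 19.90 on all BAT arrays and at 3.77, 3.59 and 3.76 in VMH, again at least 15.18. No BAT array came near a VMH array in either gene. Others among the 12 largest were Cd36, a fatty acid importer (difference 14.17), Lpl, which frees fatty acids from lipoproteins (at least 12.999), Agpat2, an enzyme of triglyceride assembly (at least 12.88), Pck1, which supplies glycerol phosphate (at least 12.41), and Pdk4, which inhibits pyruvate dehydrogenase (13.43). Gpd1, a glycerol phosphate dehydrogenase, lay at the ceiling in BAT and differed by 14.46. Car3, the carbonic anhydrase abundant in fat and muscle (at least 13.43), and Tmem45b (at least 12.89) completed this group together with Trarg1, a regulator of glucose transporter traffic (at least 12.10).

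In the opposite direction the 12 largest differences included those of Snap25, Vsnl1, Slc17a6 and Slc1a2. Snap25, which fuses synaptic vesicles with the membrane, gave 4.30, 4.48 and 4.42 in BAT and 18.10, 18.10 and 18.09 in VMH, at least 13.38 (adjusted p = 2.68e-10). Vsnl1, a neuronal calcium sensor, was higher in VMH by at least 12.34. Slc17a6, the vesicular glutamate transporter of hypothalamic neurons, gave 3.79, 3.83 and 3.61 against 15.56, 15.62 and 15.42, at least 10.81. Slc1a2, the glutamate transporter of astrocytes, gave 3.83, 3.77 and 3.86 against 15.39, 15.24 and 15.28, at least 10.58. All 4 genes lay below the median of the BAT arrays, with Slc1a2 at the 19.3 percentile of all features there and the 98.5 percentile in VMH. The rest of the 12 were Tmem130, Gabra5, Syt1, Aldoc, Pcp4, Fezf1, Slc6a11 and Faim2, with bounds between 10.28 and 10.96.

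**Figure D1:**
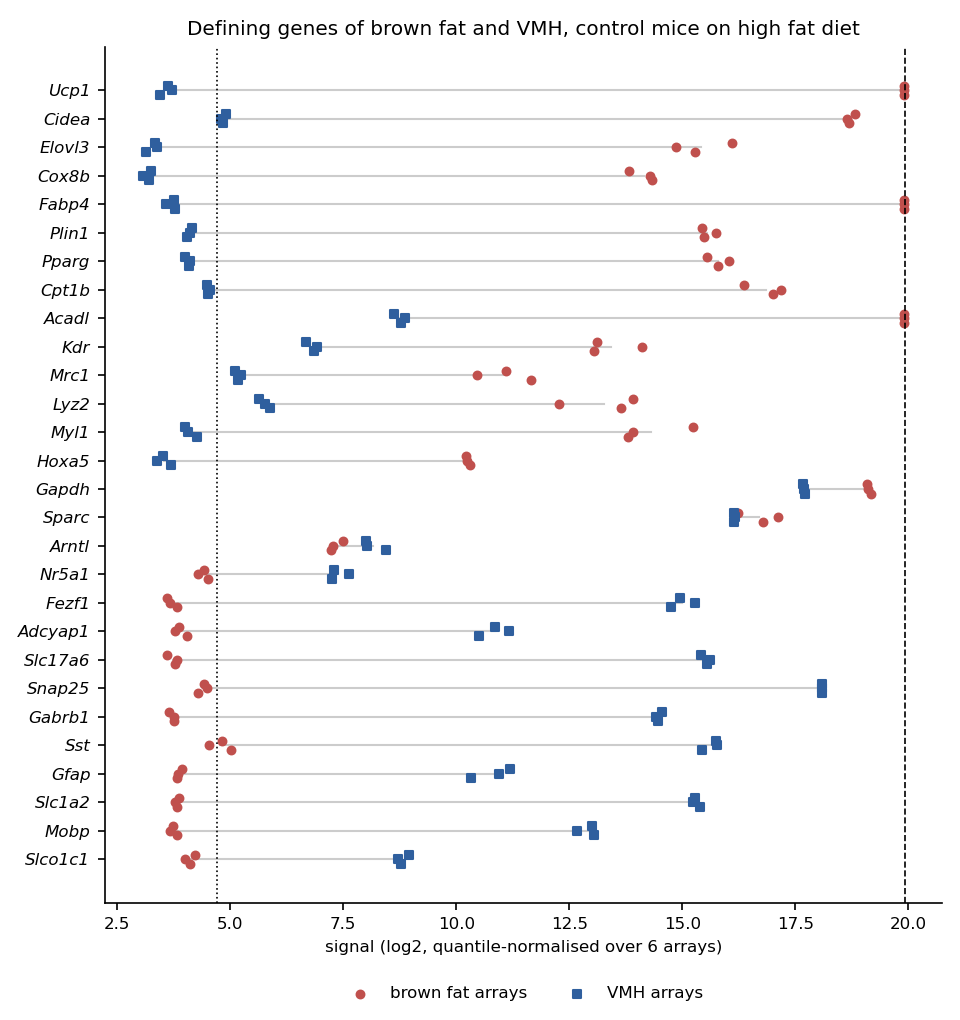
Signal of genes that mark each tissue or a cell type within it, on the log2 scale after quantile normalisation of the 6 arrays; each point is 1 array, the grey line joins the tissue means, the dotted line is the level of 4.72 under which a mean was counted as dim, and the dashed line is the signal ceiling. Ucp1 and Fabp4 sit at the ceiling on all 3 BAT arrays and near 3.6 in VMH, and the arrays of the tissues overlap in none of the genes shown, coming closest in Sparc.

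All 20 members of the list of brown adipocyte identity and thermogenesis that were on the array were higher in BAT, 18 of them on both scales, with a median difference of 8.30 against 0.59 over all genes tested. Cidea, a lipid droplet protein of brown adipocytes, gave 18.68, 18.65 and 18.83 in BAT and 4.85, 4.81 and 4.90 in VMH, a difference of 13.87 with a standard error of 0.08. Elovl3, the cold-responsive elongase of brown fat, gave 15.28, 14.85 and 16.10 against 3.14, 3.39 and 3.33, at least 10.69. Otop1, a proton channel enriched in brown fat, was higher by at least 10.22, and Ebf2, a transcription factor that selects the brown lineage, by at least 7.75. Ppargc1a, the coactivator that drives mitochondrial gene expression, gave 12.77, 12.85 and 11.9995 in BAT and 9.84, 9.46 and 9.66 in VMH, a difference of 2.88, so it was well measured in both tissues. Its relative Ppargc1b differed by 3.79. Dio2, which activates thyroid hormone in brown fat and in tanycytes, gave 8.08, 7.81 and 7.29 against 4.69, 4.57 and 4.64, at least 3.01. The receptors through which noradrenaline acts on brown fat could hardly be examined: of the adrenergic receptor list, 2 genes were on the array under a single symbol, and both were dim in both tissues.

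General adipocyte and lipid droplet genes were higher in BAT in 24 of 24, all 24 on both scales, and had a median of 11.71, above that of every other list here. Pparg, the master transcription factor of adipocytes, gave 15.80, 16.03 and 15.54 against 4.08, 4.10 and 4.01, at least 11.07. Plin1, which guards the lipid droplet, gave 15.48, 15.76 and 15.44 against 4.05, 4.10 and 4.16, at least 10.84, and Cidec, which enlarges droplets, differed by at least 11.83. The arrays of each tissue kept within a log2 unit of each other in these genes. Fatty acid β-oxidation genes were higher in BAT in 19 of 19, all on both scales, with a median of 10.11. Acadl, the long-chain acyl-CoA dehydrogenase, was at the ceiling of 19.90 on every BAT array and at 8.77, 8.86 and 8.63 in VMH, a difference of 11.15 or more. Acadm, the medium-chain enzyme (10.11), Hadha, a subunit of the trifunctional protein (9.36), and Etfdh, which hands the electrons to the respiratory chain (8.43), all had clear signal in VMH as well, between the 84.6 and the 90.1 percentile.

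Genes of fatty acid and triglyceride synthesis were higher in BAT in 17 of 17, again all on both scales, with a median of 7.69. Fasn, the fatty acid synthase, gave 19.20, 19.38 and 19.59 in BAT and 9.84, 10.07 and 10.02 in VMH, a difference of 9.41. Thrsp, a lipogenic nuclear protein, differed by 12.75. Scd1, a fatty acid desaturase, was represented by 2 features that disagreed in size: the brighter was at the ceiling in BAT and differed by 5.79, the other by 12.06. Synthesis and oxidation genes were thus both higher in BAT. Of the peroxisome list 21 of 23 were higher in BAT (14 on both scales, median 3.22), such as catalase, Cat (8.62), and Crat, the carnitine acetyltransferase (7.74). The exception was Far1, the fatty acyl-CoA reductase that starts ether lipid synthesis, which was higher in VMH: it gave 8.96, 8.65 and 9.09 in BAT and 11.22, 11.01 and 11.14 in VMH.

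Mitochondrial lists had medians above that of all genes, in the order citric acid cycle, respiratory chain and mitochondrial ribosome. The citric acid cycle list was higher in BAT in 17 of 17 on both scales, with a median of 5.78, and included Pdha1, a subunit of pyruvate dehydrogenase (7.30), Dlst (8.13) and Ogdh (5.78) of the 2-oxoglutarate dehydrogenase complex. Nuclear-encoded subunits of the respiratory chain were higher in BAT in 43 of 45 (39 on both scales, median 4.20). Sdha of complex II gave 17.33, 17.37 and 17.40 against 11.66, 11.49 and 11.59, and Atp5b of ATP synthase 17.08, 17.25 and 17.20 against 11.48, 11.51 and 11.41. The single subunit called higher in VMH encodes the c ring of ATP synthase: Atp5g1 gave 7.34, 6.83 and 7.29 in BAT and 9.69, 9.66 and 9.72 in VMH, a difference of -2.53 that held on both scales. Atp5g3, another gene for the same c subunit protein, was not called, at 0.57 after quantile normalisation and -0.50 as deposited. For the mitochondrial ribosome 24 of 26 members were higher in BAT but 10 on both scales, and the median was 1.91 (0.38 as deposited). Mrpl16 differed by 3.76 and Mrps22 by 2.65, and Mrps11 did not differ by 1 unit (0.22).

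Lists of general cell machinery differed from one another. Cytosolic ribosomal proteins had a median of 0.56, with 4 of 13 called higher in BAT and 0 on both scales, and the sign of the median turned with the deposited values (-0.80). Rpl4 gave 16.66, 16.56 and 16.78 in BAT and 16.57, 16.30 and 16.35 in VMH, a difference of 0.26 with a 95% interval of 0.01 to 0.51. Proteasome subunits were higher in BAT in 17 of 29, above the 35.8% of all genes (6 on both scales, median 1.21 and 0.03 as deposited). Psmd8, a lid subunit, stood out within the list at 4.17, with 13.20, 13.20 and 12.89 against 8.82, 8.96 and 8.99. Housekeeping genes were called in both directions, 7 of 12 higher in BAT and 2 higher in VMH (median 1.46): Gapdh differed by 1.43, B2m by 4.53, Hprt by -1.20 and Ywhaz by -3.36, while Tbp (0.42) and Polr2a (0.30) were not called. Glycolytic enzymes shared by most cells were higher in BAT in 8 of 8, all on both scales, with a median of 3.18, among them Ldha, the lactate dehydrogenase A subunit (3.81), and Pkm, pyruvate kinase (3.63). Cholesterol synthesis was mixed: 8 of 15 were higher in BAT (3 on both scales) and 2 in VMH, and the median of 1.12 became -0.41 as deposited. Hmgcs1, which makes the mevalonate precursor, differed by 2.88, whereas Fdft1 and Sqle, the steps that make and oxidise squalene, were higher in VMH by 1.46 and 1.36 on the log2 scale.

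**Figure D2:**
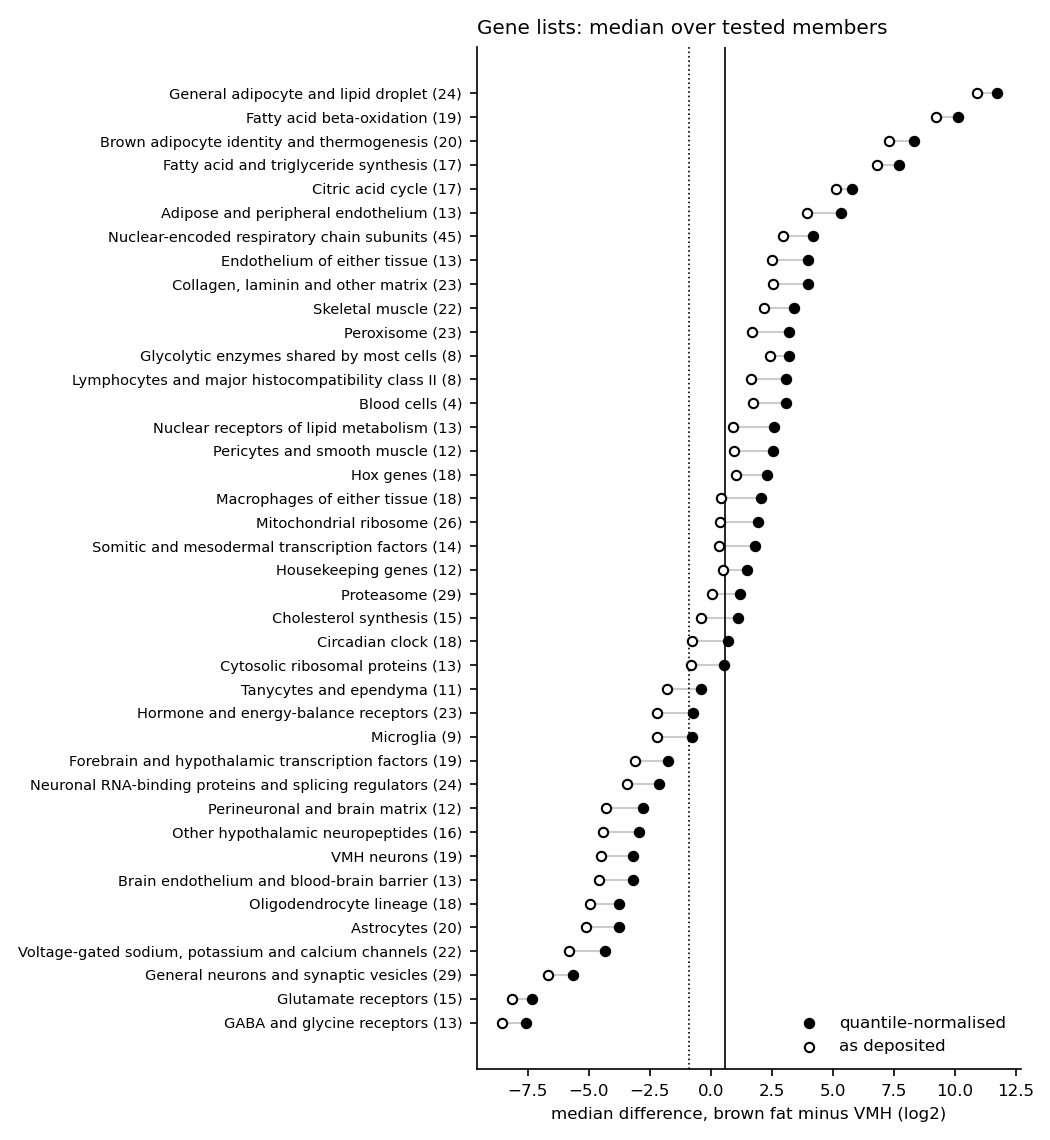
Median difference, BAT minus VMH on the log2 scale, over the tested members of 40 gene lists (number of members in parentheses), after quantile normalisation (filled) and as deposited (open); the solid and dotted vertical lines are the medians over all genes tested on these scales, 0.59 and -0.89. Adipocyte genes lie highest, at 11.71, and GABA and glycine receptors lowest, at -7.56; mitochondrial lists range from 1.91 for the mitochondrial ribosome to 5.78 for the citric acid cycle.

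The VMH samples carried the genes by which the nucleus is recognised. In the list of VMH neurons 17 of 19 were higher in VMH, all 17 on both scales, with a median of -3.20. Nr5a1, the transcription factor SF1 that marks this nucleus within the brain, gave 7.24, 7.64 and 7.29 in VMH and 4.51, 4.29 and 4.43 in BAT, at least 2.67 (adjusted p = 5.64e-07). Fezf1, a forebrain zinc finger gene needed to form the VMH, had a much stronger signal, 14.76, 15.28 and 14.96 against 3.81, 3.68 and 3.60, at least 10.28. Sox14 was low, at 5.84, 5.91 and 5.86 against 3.69, 3.79 and 3.89, at least 1.15. Adcyap1, the gene of the peptide PACAP made by many VMH neurons, gave 10.51, 11.17 and 10.86 against 4.04, 3.78 and 3.87, at least 6.13, and Cnr1, the cannabinoid receptor, differed by at least 4.49. In these genes the 3 VMH arrays lay above all BAT arrays. The gene for oestrogen receptor α, Esr1, a marker of the ventrolateral VMH, went the other way after quantile normalisation, at 6.16, 5.90 and 6.49 in BAT and 5.25, 5.08 and 5.04 in VMH, but its difference of 1.06 became -0.64 as deposited, below 1 unit on that scale.

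Peptides made by neighbouring hypothalamic cells were measured too. Of 16 tested peptide genes 15 were higher in VMH, all on both scales, with a median of -2.94, and another 6 were dim in both tissues. Somatostatin, Sst, gave 15.44, 15.77 and 15.75 in VMH and 5.02, 4.53 and 4.81 in BAT. Vasopressin, Avp, made by magnocellular and suprachiasmatic neurons, gave 13.85, 15.29 and 13.99 against 4.81, 4.44 and 4.31, and was the more variable of these between VMH arrays. Cartpt (2.51) and Gal (at least 1.52) were higher in VMH by less. Gnrh1 was the member called higher in BAT, by 1.35, and turned to -0.31 as deposited.

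General neuron and synaptic vesicle genes were higher in VMH in 28 of 29 (28 on both scales, median -5.66). Syt1, the calcium sensor of vesicle release, differed by at least 10.95, and Map2, the dendritic microtubule protein, gave 14.90, 14.85 and 14.99 against 5.31, 5.21 and 5.20. Vamp2, the vesicle partner of Snap25, was the exception: at 8.16, 8.39 and 8.17 in BAT and 8.99, 9.33 and 9.06 in VMH it differed by -0.89 and was not called. Glutamate receptors were higher in VMH in 14 of 15 (14 on both scales, median -7.33), among them the AMPA receptor subunits Gria1 (at least 10.57), Gria2 (at least 9.90) and Gria4 (at least 8.10) and the kainate receptor subunit Grik2 (at least 7.74). Grm2, a presynaptic metabotropic receptor, gave 4.37, 4.33 and 4.27 in BAT, where it was dim, and 4.95, 5.06 and 5.003 in VMH, at least 0.28 higher, and was not called. GABA and glycine receptors were higher in VMH in 13 of 13, all on both scales, with the lowest median of any list, -7.56. Gabrb1 gave 14.46, 14.41 and 14.55 in VMH and 3.77, 3.75 and 3.66 in BAT, and Gabrg1, a γ subunit, differed by at least 8.23. Voltage-gated channels were higher in VMH in 20 of 22 (20 on both scales, median -4.34), such as the sodium channel Scn2a (9.10) and the potassium channel Kcnq3 (at least 7.16). Cacna1s, the calcium channel of skeletal muscle, was the member higher in BAT, and Kcna5 did not differ (-0.02, with 8.39, 8.36 and 8.31 against 8.17, 8.60 and 8.36).

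Astrocyte genes were higher in VMH in 15 of 20, all 15 on both scales, and 5 were higher in BAT, 1 on both scales. Gfap, the astrocyte filament gene that gives the cKO mice their name, gave 10.33, 10.94 and 11.18 in VMH and 3.83, 3.84 and 3.93 in BAT, at least 6.10. Mlc1 (at least 7.58) and Hepacam (at least 5.83), a pair of proteins of astrocyte endfeet, were likewise low in every BAT array. Markers that other tissues use did not separate in this way: Gja1, the gap junction protein connexin 43, gave 7.71, 7.73 and 7.78 in BAT and 5.79, 5.63 and 5.80 in VMH, and Aldh1l1, the folate enzyme often used to mark astrocytes, gave 7.69, 7.91 and 8.34 against 6.14, 5.79 and 5.93. Both kept a small positive difference as deposited, 0.27 and 0.30. Oligodendrocyte genes were higher in VMH in 15 of 18, all on both scales, including the myelin genes Mobp (at least 8.19), Mal (6.85) and Cldn11 (at least 4.86). Aspa, which releases acetate from N-acetylaspartate, was on that list but higher in BAT by 5.96, with 14.21, 14.24 and 13.76 against 8.01, 8.04 and 8.27, and Cspg4 was higher in BAT by 2.64. Of 11 tested tanycyte and ependyma genes 5 were higher in VMH and 4 in BAT, and Gpr50, a tanycyte receptor, varied among the VMH arrays at 8.39, 6.03 and 7.77. Brain matrix genes were higher in VMH in 10 of 12, all on both scales, such as Ptprz1, a proteoglycan phosphatase (at least 8.96), and Nrcam (at least 7.62). Tnc, tenascin C, was higher in BAT by at least 1.09, and turned to -0.24 as deposited.

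Macrophage genes were higher in BAT in 13 of 18 (7 on both scales, median 2.04), among them Mrc1, the mannose receptor, at 11.64, 10.47 and 11.10 against 5.18, 5.24 and 5.11, and the lysozyme gene Lyz2, at 13.65, 12.27 and 13.92 against 5.87, 5.77 and 5.64. Of 9 microglia genes 0 were higher in BAT and 2 in VMH, beside 18.5% of all genes tested: Sall1 by at least 1.81 and P2ry13 by 1.57, and Tmem119 gave 5.32, 5.38 and 5.46 in BAT and 5.17, 5.13 and 5.35 in VMH. Lymphocyte and major histocompatibility class II genes were higher in BAT in 5 of 8 and blood cell genes in 3 of 4, all on both scales, with H2-Ab1 at 11.97, 11.72 and 10.26 against 5.02, 5.19 and 5.05. Of the 8 and the 4 tested, 5 and 3 were dim in VMH, so the direction of those was set by the filter. Alas2, the haem enzyme of red cells, gave 8.76, 11.05 and 10.79 against 5.47, 6.44 and 5.81, so it varied by more than 2 units between BAT arrays.

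Endothelial genes shared by vessels of both tissues were higher in BAT in 13 of 13 (12 on both scales, median 3.99). Kdr, the main receptor for vascular endothelial growth factor, gave 13.05, 14.10 and 13.11 in BAT and 6.86, 6.91 and 6.69 in VMH, a difference of 6.60, and Emcn differed by 5.50. The lists of specialised vessel genes parted by tissue. Genes of adipose and peripheral endothelium were higher in BAT in 13 of 13 (11 on both scales, median 5.32), with the glycerol channel Aqp7 at least 11.53 higher. Of these 13, 7 were dim in VMH, so that their direction was set by the filter. This list shares Fabp4 and Cd36 with the adipocyte list, so vessel and adipocyte signal cannot be told apart in it. Genes of the blood-brain barrier were higher in VMH in 9 of 13 (9 on both scales, median -3.20), and 5 of the 13 were dim in BAT. They included Slco1a4 (at least 5.96), the thyroid hormone transporter Slco1c1 (at least 4.09) and Mfsd2a, which carries lipid into the brain (5.10). Of the 3 barrier genes higher in BAT, Slc16a1, a lactate transporter, held on both scales (6.84). Cldn5, a tight junction gene, differed by 1.54 and turned to -0.17 as deposited. Pericyte and smooth muscle genes were higher in BAT in 10 of 12 (6 on both scales), such as Rgs5 (5.71) and Abcc9 (5.03), with Vtn higher in VMH by 2.23. Collagen, laminin and other matrix genes were higher in BAT in 22 of 23 (17 on both scales, median 3.98), such as the basement membrane genes Nid1 (6.51) and Lama4 (6.38). Sparc, a collagen-binding protein, was near the top of both tissues at 16.78, 17.11 and 16.22 against 16.15, 16.18 and 16.15 and was not called.

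Skeletal muscle genes moved with the BAT arrays. Of 22 such genes 20 were called higher in BAT, with a median of 3.42, but 7 on both scales and 3 in a fit over all 24 arrays of the series, which takes in the spread of the other BAT groups. Their mean over the 22 genes was 7.76, 6.71 and 9.83 on the 3 BAT arrays and 4.51 to 4.55 on the VMH arrays. Acta1, the actin of muscle fibres, gave 9.70, 8.83 and 13.21 in BAT, and Myh4, a fast myosin heavy chain named here for its spread, 9.85, 5.99 and 13.58. The third BAT array was the highest and the second the lowest in both, while Myl1, a myosin light chain, was high on all 3, at 13.81, 13.91 and 15.24 against 4.26, 4.07 and 4.01 in VMH. BAT lies against muscle, and the part of muscle RNA in the other BAT differences was not tested. On the same arrays Cidea stayed between 18.65 and 18.83. Across the series the muscle mean was 17.4, 6.64 and 16.7 in BAT of control SD, 14.8, 17.6 and 16.8 in cKO SD and 6.70, 10.7 and 13.1 in cKO HFD, and 4.52 to 4.62 on all VMH arrays, on a scale normalised over the 24 arrays. Under an interaction test in that fit, 10 of the 22 genes differed less between tissues here than in cKO SD, beside 3.4% of all genes tested. Against control SD and cKO HFD 0 of 22 passed, beside 1.29% and 0.0808% of all genes.

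**Figure D3:**
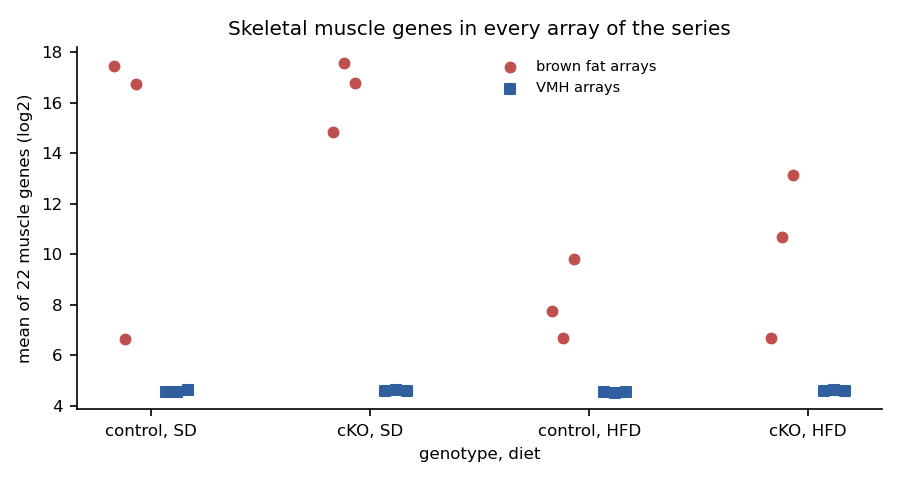
Mean log2 signal of 22 skeletal muscle genes on each of the 24 arrays, quantile-normalised together, by genotype and diet; circles are BAT arrays and squares are VMH arrays. BAT arrays range from 6.64 to 17.6 and the VMH arrays stay between 4.52 and 4.62, with the BAT arrays of control mice on HFD at 7.74, 6.70 and 9.81.

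Genes that record the body position of a tissue also split between them. Hox genes, which are silent in the forebrain and set position along the trunk, were higher in BAT in 17 of 18 tested (9 on both scales, median 2.30), and 15 more were dim in both tissues. All 18 tested were dim in VMH and passed the filter through BAT, so their direction was set by the filter and the count is a description. Hoxa5 gave 10.31, 10.23 and 10.22 in BAT and 3.70, 3.38 and 3.51 in VMH, at least 5.54, followed by Hoxc4 (at least 3.46) and Hoxc6 (at least 3.43). Hoxc9, a more posterior gene, was not called, at 4.86, 4.88 and 4.97 against 4.23, 4.28 and 4.23. Forebrain and hypothalamic transcription factors were higher in VMH in 16 of 19 (16 on both scales, median -1.77), with 17 of the 19 dim in BAT and 7 more dim in both: Sox2, kept on in astrocytes and neural progenitors, by at least 4.70, and Isl1, which specifies hypothalamic neurons, by at least 2.96. Somitic and mesodermal transcription factors were higher in BAT in 9 of 14 (5 on both scales), including Snai2 (3.94) and Twist1 (at least 1.104), while Tbx1 was not called (at least 0.12).

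Regulators of RNA and of lipid metabolism took sides by member. Neuronal RNA-binding proteins and splicing regulators were higher in VMH in 15 of 24 (15 on both scales) and in BAT in 6 (2 on both scales). The neuronal proteins Elavl3 (at least 6.17), Elavl4 (at least 4.77) and Rbfox3, also known as NeuN (at least 4.40), were dim in BAT. Ptbp1, which keeps neuronal exons out in other cells, gave 8.995, 9.12 and 9.27 in BAT and 6.64, 6.64 and 6.59 in VMH, a difference of 2.51 (0.91 as deposited), and its relative Ptbp3 differed by 3.44. Nuclear receptors of lipid metabolism were higher in BAT in 9 of 13 (6 on both scales), among them Pparg and Ppara, the fatty acid sensor (at least 8.46), and Nr1h3, the oxysterol receptor LXRα, differed by 4.04. The receptors Nr2f2 (2.46) and Nr2f1 (1.41) were higher in VMH.

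Receptors for hormones of energy balance were found on both sides, 11 of 23 in VMH and 6 in BAT (11 and 4 on both scales). The leptin receptor Lepr gave 6.76, 6.95 and 6.76 in VMH and 4.86, 4.77 and 4.95 in BAT. Mc3r, a melanocortin receptor, differed by at least 2.24 and Hcrtr2, the orexin receptor, by at least 3.60 toward VMH. Toward BAT lay the adiponectin receptors Adipor2, at 14.31, 14.53 and 14.78 against 6.59, 6.55 and 6.68, and Adipor1 (2.64), and Klb, the co-receptor for the hormone FGF21, at 10.02, 9.83 and 10.48 against 3.52, 3.65 and 3.42. The partner receptor of Klb, Fgfr1, was at 9.02, 9.08 and 8.93 in BAT and 8.99, 9.01 and 8.89 in VMH and did not differ after quantile normalisation (0.05), although as deposited it was lower in BAT (-1.36).

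Circadian clock genes lay near the values of all genes. Of 18 members 5 were higher in BAT and 3 in VMH (1 and 3 on both scales), and their median was 0.71, or -0.79 as deposited. Arntl, the gene of Bmal1, gave 7.23, 7.27 and 7.49 in BAT and 8.44, 8.03 and 8.003 in VMH, a difference of -0.83 with a standard error of 0.14 that did not reach 1 unit after quantile normalisation and was called with the deposited values (-2.49). Npas2, a partner of Bmal1, was higher in VMH, at 6.89, 7.41 and 7.23 against 4.83, 4.88 and 4.82. The repressor Per2 differed by 2.18 and Bhlhe40 by 2.63 toward BAT, and the output gene Dbp by 0.05. The labels used here give no time of day for the harvest.

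Families of related enzymes often had different members in the tissues. Of 23 families of metabolic paralogs 12 had a member called higher in each tissue, and in 11 all called members were higher in BAT. These counts are for the quantile-normalised values. The enolase and creatine kinases higher in BAT (Eno3, Ckm and Ckmt2) were not called as deposited, so these families did not split on both scales. Among the 11, the sarco-endoplasmic calcium pumps had no member called as deposited. For carnitine palmitoyltransferase 1, which admits fatty acids to mitochondria, the muscle and brown fat form Cpt1b gave 17.00, 17.18 and 16.37 in BAT and 4.51, 4.55 and 4.50 in VMH, at least 12.13. The neuronal form Cpt1c was higher in VMH, at 7.49, 7.71 and 7.59 against 4.34, 4.52 and 4.47, at least 2.88, and the widespread form Cpt1a was higher in BAT by 2.98. Among uncoupling proteins Ucp1 and Ucp3 (at least 5.88) were higher in BAT and the brain carriers Slc25a27 (3.25) and Slc25a14 (2.55) in VMH. Among fatty acid binding proteins Fabp4, Fabp3 (7.96) and Fabp5 (1.99, but 0.30 and not called as deposited) were higher in BAT. Fabp7, the form of astrocytes and radial glia, was higher in VMH, at 10.55, 12.13 and 12.14 against 4.58, 4.94 and 4.12. A second feature of Fabp3 differed by 0.94.

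Glucose handling split in the same way. Slc2a4, the insulin-responsive transporter GLUT4, gave 12.32, 12.78 and 12.51 in BAT and 4.51, 4.44 and 4.45 in VMH, at least 7.82. The barrier and glial transporter Slc2a1 (3.36) and the neuronal transporter Slc2a3 (3.98) were higher in VMH. Aldoc, the brain aldolase, was higher in VMH by at least 10.89 and Aldoa in BAT by 2.74. Eno2, the neuronal enolase, was higher in VMH by at least 6.15, and Eno3, the muscle enolase, in BAT by 2.69 with values of 7.996, 8.08 and 9.67, highest on the array on which the muscle genes were highest. Among phosphofructokinases Pfkl was higher in BAT by 6.29 and Pfkm in VMH by 1.81, and Pfkp did not reach 1 unit (0.29). Ckb (3.49) and Ckmt1 (at least 3.75), the creatine kinases of brain, were higher in VMH, and the muscle forms Ckm (2.36) and Ckmt2 (at least 1.16) in BAT, the latter at 5.62, 4.83 and 7.17, in the order of the muscle genes. Of the kinases that inhibit pyruvate dehydrogenase, Pdk4 (13.43), Pdk2 (5.65) and Pdk1 (2.21) were higher in BAT and Pdk3 (3.10) in VMH. Pdk1 was not called as deposited (0.59).

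Lipid enzymes gave the remaining pairs. The elongases Elovl3, Elovl6 (6.33) and Elovl5 (1.86) were higher in BAT and Elovl4, which makes very long chain fatty acids of brain and retina, was higher in VMH by 4.85. Acsl5, an acyl-CoA synthetase, was higher in BAT on its brighter feature (14.41, 14.78 and 16.65 against 8.63, 8.29 and 8.43) and differed by 0.14 on its other one, and Acsl6, the form of brain, was higher in VMH by at least 4.47. Lpin1 was higher in BAT by 7.78 and Lpin2 in VMH by 1.25. In cytochrome c oxidase no member of 4 isoform families was called higher in VMH. Cox7a1 and Cox8b, isoforms of muscle and brown fat, differed by 12.64 and at least 9.43 and their common counterparts Cox7a2 and Cox8a by 4.23 and 4.58. In the other two families the order was the opposite: the muscle isoform Cox6a2 differed by 1.54 (-0.10 as deposited) and Cox6a1 by 3.47, and Cox4i2 was not called (0.70, and called higher in VMH as deposited at -1.04) while Cox4i1 differed by 3.39. Cox8b gave 14.32, 14.29 and 13.82 in BAT and 3.21, 3.07 and 3.25 in VMH, where it lay at the 1.11 percentile. All 5 perilipins tested were higher in BAT, from Plin3 (5.13) to Plin2 (11.50).

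**Figure D4:**
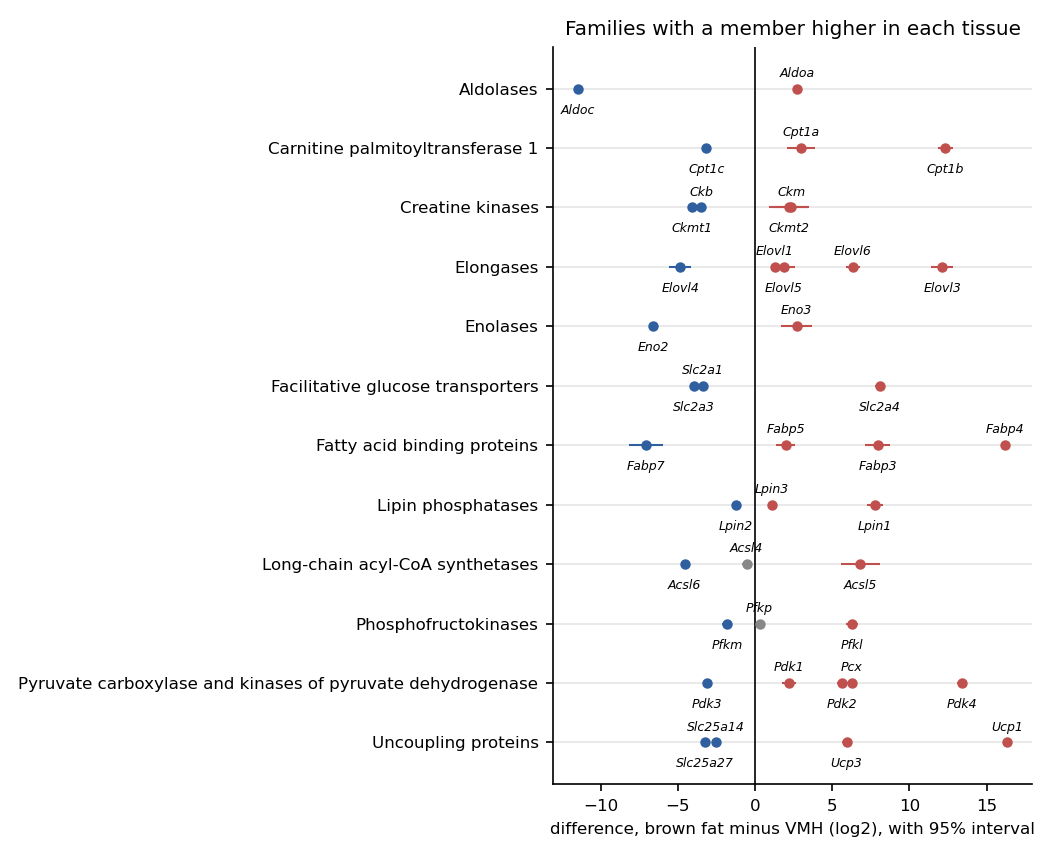
Difference, BAT minus VMH on the log2 scale after quantile normalisation, for members of the 12 enzyme and carrier families with a member called higher in each tissue; bars are 95% intervals from limma, red is called higher in BAT, blue higher in VMH and grey not called. The members lie on both sides of 0 in each family, as for Cpt1b, Cpt1a and Cpt1c.

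Small RNA genes gave a separate pattern, chosen for description after the values were seen. The array holds features for hairpin precursors, so these values report the precursor or its host transcript and not the mature miRNA. Of 1228 miRNA genes in the RefSeq gene table, 600 were on the array under a single symbol and 386 were tested; 133 were higher in VMH, all on both scales, and 45 in BAT, 9 on both scales. Some are near-identical copies whose signals cannot be told apart. Of the 133, 37 lie between Dlk1 and Dio3 on chromosome 12. This imprinted region (GRCm38.p6, Dlk1 at chr12:109452485-109463336 and Dio3 at chr12:110279230-110281097) carries a long run of miRNAs known from neurons and placenta. Of its 61 miRNA genes 42 were on the array and 38 were tested, with 37 higher in VMH, all on both scales, and 0 higher in BAT. The arrays of the tissues did not overlap in any of the 38, beside 88.7% of all genes tested and 274 of the 348 other miRNA genes tested. Of the 38, 28 were dim in BAT, so that their direction was set by the filter, and 10 had signal in both tissues, all 10 higher in VMH. The median difference was -3.91, against -0.28 over the other 348 miRNA genes tested, of which 96 were higher in VMH and 45 in BAT. Neighbouring genes of the run may share a transcript and are not independent.

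Mir453 gave 4.18, 3.84 and 4.34 in BAT and 13.23, 12.99 and 13.16 in VMH, at least 8.40. Mir409 was the member that was not called, at least 0.57 toward VMH. Dlk1 itself, which encodes an inhibitor of fat cell formation, was on the list of VMH neurons and gave 7.77, 7.83 and 7.29 in VMH and 4.31, 4.42 and 4.51 in BAT. The 37 called genes have 68 mature sequences in RefSeq with 63 different seeds, the 7 bases from position 2 to 8 that pair with targets, and 5 seeds are shared by more than 1 gene. The sequences of 3 such pairs are shown, with the seed in capitals, to set the shared bases beside those that differ.
mmu-miR-379-3p: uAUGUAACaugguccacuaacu
mmu-miR-411-3p: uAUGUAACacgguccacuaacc
mmu-miR-379-5p: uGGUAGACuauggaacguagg
mmu-miR-1193-5p: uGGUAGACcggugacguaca
mmu-miR-376b-5p: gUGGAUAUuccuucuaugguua
mmu-miR-376c-5p: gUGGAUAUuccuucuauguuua
The genes of these pairs, Mir379, Mir411, Mir1193, Mir376b and Mir376c, were each called higher in VMH.

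On the side of BAT, Mir193b and Mir365-1, neighbours on chromosome 16 that are known from brown fat differentiation, were higher by 2.80 and 3.09. They were not the largest of the 45 differences toward BAT, which reached 5.72 in a gene that also held on both scales. Mir193b gave 7.43, 8.35 and 7.83 in BAT and 5.15, 5.07 and 4.99 in VMH. Mir365-1 gave 8.05, 8.35 and 8.17 against 4.997, 5.26 and 5.03, and both held on both scales. Their mature forms from RefSeq share no seed with each other. The sequence of miR-365-3p is also that of a gene on chromosome 11, which differed by 1.56 and was not called as deposited (-0.20).
mmu-miR-193b-3p: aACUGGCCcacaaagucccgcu
mmu-miR-365-3p: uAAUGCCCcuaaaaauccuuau
Mir378a, a miRNA gene inside Ppargc1b, was higher in BAT by 3.77, beside 3.79 for its host, so that the feature and the host moved by the same amount.

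**Figure D5:**
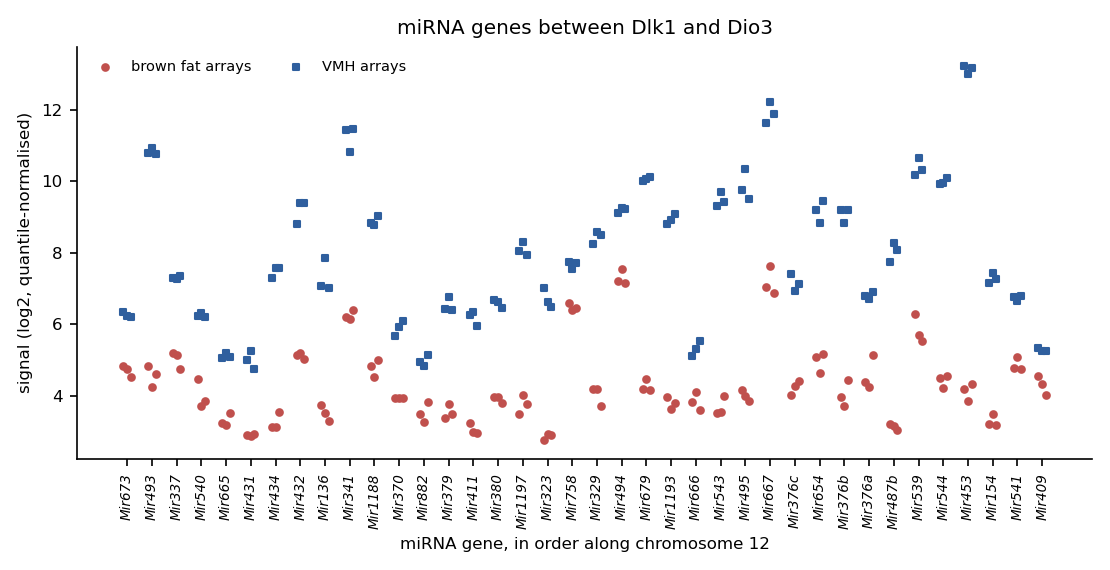
Signal of the 38 tested miRNA genes between Dlk1 and Dio3 on each of the 6 arrays, on the log2 scale after quantile normalisation, in their order along chromosome 12; circles are BAT arrays and squares are VMH arrays. All VMH points lie above the BAT points of the same gene, by at least 8.40 for Mir453 and at least 0.57 for Mir409, which was not called.

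The repressor REST silences neuronal genes outside neurons by binding an element named RE1. Rest, named here after its values were seen, gave 8.28, 8.18 and 7.94 in BAT and 5.57, 5.65 and 5.60 in VMH, a difference of 2.53 that fell to 0.85 as deposited, and its corepressor Rcor1 differed by 1.65 (0.09 as deposited). Promoters of RefSeq genes (GRCm38.p6, 250 bases before to 50 after the start) were searched on both strands for 9 motifs in all, 3 of them spellings of RE1 that overlap one another. The loosest RE1 spelling, AGCACC and GGNCAG separated by any 2 bases, was present in promoters of 32 of 27025 genes (0.118%). Among genes tested it stood in 15 of 2354 called higher in VMH (0.637%), in 2 of 4253 called higher in BAT (0.047%) and in 2 of 5297 not called (0.0378%). With CAGCACC and GGACAG the counts in the same sets were 6, 0 and 1, out of 11 genes in all (0.0407%), and with TCAGCACC and GGACAG they were 3, 0 and 1, out of 8 (0.0296%). The loosest spelling is shown because it has the most matches, a choice made after the counts were seen. The 15 included Syn1, a synaptic vesicle phosphoprotein, Gria2, Gad2, which makes GABA, Hrh3, a histamine receptor, and Robo2, an axon guidance receptor. Syn1 gave 12.58, 13.09 and 12.54 in VMH and 4.34, 4.27 and 4.71 in BAT, at least 8.02, and Gria2 14.72, 14.61 and 14.52 against 3.75, 3.92 and 3.96. Their promoters are shown 5′ to 3′ on the strand of the gene as the table gives them, with the match in capitals.
Syn1, chrX:20920869-20921168, minus strand: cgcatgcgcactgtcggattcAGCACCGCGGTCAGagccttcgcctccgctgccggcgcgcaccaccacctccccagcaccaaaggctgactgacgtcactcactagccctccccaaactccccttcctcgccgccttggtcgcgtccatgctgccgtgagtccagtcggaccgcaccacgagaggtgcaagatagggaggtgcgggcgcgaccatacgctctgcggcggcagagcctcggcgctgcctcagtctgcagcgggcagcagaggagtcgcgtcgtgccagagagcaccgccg
Gria2, chr3:80802786-80803085, minus strand: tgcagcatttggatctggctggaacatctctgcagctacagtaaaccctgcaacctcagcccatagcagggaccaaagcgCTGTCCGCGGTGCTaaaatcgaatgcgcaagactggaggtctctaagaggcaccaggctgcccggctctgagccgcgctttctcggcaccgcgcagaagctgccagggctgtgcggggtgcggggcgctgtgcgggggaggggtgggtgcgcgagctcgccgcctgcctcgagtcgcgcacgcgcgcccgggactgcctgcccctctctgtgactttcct
The match in Syn1 lies at -229 to -216 from the start, and that in Gria2, read on the opposite strand, at -170 to -157. A match is a run of letters and not a measured binding site, and binding of REST was not measured here.

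The other 6 motifs were those of regulators of mitochondria, fat and the clock. The estrogen-related receptor element TCAAGGTCA was found in 0.466% of all genes with a promoter and in 2 of 34 respiratory chain genes, Sdhd and Atp5g3. It was in 0.259% of genes called higher in BAT, 0.255% of those higher in VMH and 0.378% of those not called. The NRF1 palindrome, GCGCA followed by TGCGC, was found in 1.07% of all and in 2 of 34, Atp5k and Uqcrc1. In the same sets of tested genes the palindrome was in 2.0%, 1.78% and 2.1%. A looser spelling, GCGCA and GCGC separated by any base, which includes the first, was found in 5.19% of all, in 9.62% of genes called higher in BAT, 8.11% of those higher in VMH and 10.7% of those not called, and in 9 of the 34 respiratory chain genes (26.5%). The direct repeat of the fat regulators, AGGTCA and AGGTCA separated by any base, was in 0.0481% of all, and with AGGNCA in both places in 0.451%. Among genes called higher in BAT, higher in VMH and not called, the first was in 0.047%, 0.0425% and 0.0378%. The looser one was in 0.4%, 0.297% and 0.245% of the same sets. Neither spelling was found in the lists of brown adipocyte (16 genes with a promoter), adipocyte (17) and β-oxidation genes (16). The E-box CACGTG, bound by clock factors, was in 11.2% of genes called higher in BAT, 9.94% of those higher in VMH and 10.6% of those not called.

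The contrast between tissues was computed again from the separate arrays of the other 3 conditions. Of the 7086 genes higher in BAT here, 83.4% were called so in control SD, 77.9% in cKO SD and 87.1% in cKO HFD, and of the 3659 higher in VMH 86.9%, 88.1% and 93.0%. All 3 conditions repeated the call of 8232 genes, and the opposite call was made for 6, 20 and 0 genes. One array stood apart in these sets: the first BAT array of control SD had Ucp1 at 9.56 where the other two had 19.905 and 19.913, and without it the shares in control SD were 84.9% and 89.6%, with 1 opposite call. On HFD the cKO arrays gave differences close to those here, 16.22 for Ucp1 and -2.95 for Nr5a1, without the bound.

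The tissue difference itself was tested against that of each other condition by an interaction term over all 24 arrays. It differed by at least 1 unit with an adjusted p under 0.05 in 16 genes (0.0808%) against cKO HFD, 255 (1.29%) against control SD and 1532 (7.74%) against cKO SD, and in 156 against control SD without the array that stood apart. These comparisons share the 6 arrays described here. Against cKO HFD the few genes included Fabp7, whose excess in VMH was 4.51 units smaller here, and Npas2, for which it was 1.75 units smaller. The difference of Pfkm was -1.81 here and 3.27 in cKO SD, with an adjusted p of 0.0511 for the interaction, which did not pass. Ckm and Ryr1, a muscle calcium release channel, showed a difference smaller here than in cKO SD by 8.04 and 7.49 units.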

How the data were processed

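The authors deposited log2 signals, 1 column per array, for 72688 features. Software listed per the submitters' processing notes was Affymetrix Expression Console 1.1.1 and PLIER 2.0, their roles unstated. Neither the genome build nor any between-array normalization was given in the sources used here. Of the features 6732 are controls, 30604 have 1 gene symbol, 2146 several and 33206 none in the platform annotation. Symbols of 827 were updated through a RefSeq gene table of GRCm38.p6, to which 22818 matched by gene ID, giving 30142 symbols; the brightest feature stood for a gene.

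The 6 arrays were quantile-normalised and BAT minus VMH was fitted with limma 3.58.1 in R 4.3.3, without a block, over 19799 genes; p-values were two-sided. The members, 41 gene lists and 23 families were chosen with earlier results of these data known. Named genes were the 12 largest differences each way among called genes whose arrays did not overlap (leaving out predicted genes, RIKEN clones, pseudogenes, olfactory receptors and small RNAs), in each list up to 4 called members of smallest p, 3 in the other direction and 2 not called, family members, and Gfap, Arntl, Ucp1 and Nr5a1. Others (Rest, Rcor1, miRNA genes, genes with motifs, Acta1, Myh4, Sox14, Dlk1 and those of the closing observations) were added after values were seen.

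Alternatives were the deposited values, median centring, ranks, spike-in scaling, a pseudocount of 16, 2 other filters, the mean of features, a trended robust prior, all 24 arrays, array weights, omission of each array in turn and a replicate block. The procedure was tested on simulated data of 19799 genes: 99% of 100 genes changed by 1.5 and 99% of 100 changed by 3 units were called, with 6 false calls among 204. These 200 genes changed equally often up and down, on arrays of the same scale. In the data 54.3% of genes were called and array medians differed between tissues. The simulated rates therefore do not cover errors from the choice of scale. Promoters were searched for 9 motifs, all reported. Conditions other than control HFD were fitted separately in the same way.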

Additional observations from a re-analysis of the deposited data

Results flagged for a closer look

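The tissue difference of a gene stands out where it differed from the same difference in another condition of the series, by the interaction term over all 24 arrays. Each value is the difference, BAT minus VMH, in control mice on HFD minus that difference in the other condition, on the log2 scale, with an adjusted p under 0.05 in limma and 3 arrays a group. A positive value means that the difference lay further toward BAT here, not that it was larger in size. The genes are those named in the report, and no cause was tested.

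Against cKO HFD, which has the same diet, 3 genes differed: Fabp7 (4.51), Npas2 (1.75) and Tnc (1.11). All 3 also differed from cKO SD, by 4.82, 1.55 and 1.096, and Tnc from control SD (1.04).

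Against control SD the difference lay further toward BAT here for Lyz2 (2.71), Pfkp (2.35), Cpt1a (1.81), Cldn5 (1.47), Psmd8 (1.24) and Sparc (1.19). It lay less far toward BAT for Esr1 (-1.94) and Car3 (-1.67). For Pfkp it was 0.29 here and -2.06 in control SD, and for Sparc 0.54 and -0.68. Without the first BAT array of control SD, on which Ucp1 was 9.56, Car3 (adjusted p 0.0537) and Pfkp (0.0791) no longer passed and the other 7 of 9 did.

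Against cKO SD, whose 3 BAT arrays all had high muscle signal, the muscle genes Ckm (-8.04), Ryr1 (-7.49), Cacna1s (-5.93), Myl1 (-3.20) and Cox6a2 (-6.90), a muscle oxidase isoform, were lower here, as were Esr1 (-2.10) and Car3 (-1.81). Of 24 adipocyte and lipid droplet genes 3 differed more here and 3 less, and of 20 brown adipocyte and 19 β-oxidation genes 0 passed. Over all genes 4.34% passed with a positive value and 3.4% with a negative one. Single genes with a positive value were Tmem45b (3.42), Plin2 (3.23), Hmgcs1 (2.75), Aqp7 (2.71), Trarg1 (2.60), Fabp5 (2.37), Cpt1a (1.85), Plin3 (1.84), Plin1 (1.83), Pparg (1.59) and Crat (1.35). Others were the glycolytic genes Pfkl (3.54), Pfkp (3.28) and Pkm (1.85), the vessel and matrix genes Kdr (2.19), Emcn (1.69), Sparc (1.56) and Cldn5 (1.43), the mitochondrial genes Cox7a2 (1.79) and Mrpl16 (1.40), Psmd8 (1.52), and the glial genes Gfap (1.76) and Gja1 (1.05). For Gfap the excess in VMH was smaller here (-6.95) than in cKO SD (-8.69). Pfkp (0.29 here, -2.97 in cKO SD) and Sparc (0.54 and -1.08) lay toward VMH in cKO SD. The part of muscle RNA in these differences was not tested.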

How the results depend on the processing

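Counts of genes depended on the scale of the arrays, and counts within lists most on the filter. With the deposited values 2385 genes were higher in BAT and 10904 in VMH, and 5440 calls were repeated in all other conditions; scaled on the hybridization spike-ins, an alternative chosen after seeing the data, these were 1882, 14109 and 4982. Keeping only genes above the median in both tissues left 1938 genes higher in VMH, 5 families with members called both ways and 146 named genes called, since fewer genes were tested. Leaving out each array in turn gave 6965 to 7295 genes higher in BAT, 3611 to 3720 in VMH, 33 to 35 lists with most members called one way, 12 families, 246 to 249 named genes and 8171 to 8264 repeated calls. With the deposited values the median difference changed sign in 3 lists, to -0.80 for cytosolic ribosomal proteins, -0.41 for cholesterol synthesis and -0.79 for the circadian clock, as it did over all genes (-0.89). The number of members called moved by over 1.5 times in 12 of 40 lists as deposited, 14 on the spike-in scale and 24 under the stricter filter.

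Single genes also changed sign. As deposited and then on the spike-in scale the values were for Esr1 -0.64 and -1.01, Gnrh1 -0.31 and -0.68, Cldn5 -0.17 and -0.54, Tnc -0.24 and -0.61, Atp5g3 -0.50 and -0.87, Dbp -1.43 and -1.80, Fgfr1 -1.36 and -1.73, Hoxc9 -0.57 and -0.94, Mrps11 -1.57 and -1.94, Pfkp -0.78 and -1.15, Polr2a -1.10 and -1.47, Rpl4 -0.43 and -0.80, Sparc -0.091 and -0.46, Tbp -1.21 and -1.58, Tbx1 -0.97 and -1.34, Cox4i2 -1.04 and -1.41, Cox6a2 -0.096 and -0.46 and Tmem119 -1.50 and -1.86. On the spike-in scale alone Aldh1l1 (-0.0675), Fabp5 (-0.0676), Gja1 (-0.10) and Rcor1 (-0.28) turned. Centring arrays on their medians turned Dbp (-0.089), Fgfr1 (-0.0236), Mrps11 (-0.24) and Tmem119 (-0.16). Array weights turned Kcna5 to 0.0019. Without 1 array Dbp ranged from -0.056 to 0.117 and Kcna5 from -0.127 to 0.0935. The cause of each change other than scale was not tested.

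The replicate block gave 7087 and 3660 calls and changed no other count by over 1.5 times. Same-numbered BAT and VMH arrays had deviations correlated at 0.06, 0.09 and -0.05, and differently numbered ones at -0.10 to 0.06. Values of such similar size cannot decide whether the numbers pair the arrays, and the labels used here do not say.

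Precision is limited by 3 arrays a tissue, by the ceiling, which 39 genes reached on every BAT array and 11 of these on all 6 arrays, and by dim signal. Of the calls, 1632 genes higher in BAT were dim in VMH and 1721 higher in VMH were dim in BAT.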

Other observations

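The direction of the tissue difference was opposite to that in cKO SD in 20 genes, some of them predicted genes. Those named here were picked after their values were seen. Usp13, a deubiquitinase, was higher in VMH here (-2.45) and in BAT in cKO SD (4.71). Tmem38a, an ion channel of the sarcoplasmic reticulum, changed from -1.31 to 5.06, Rbm24, a splicing regulator of striated muscle, from -1.85 to 3.84, and Pkia, an inhibitor of protein kinase A abundant in muscle and brain, from -3.08 to 2.78. The interaction had an adjusted p of 0.0236 for Usp13, 0.0439 for Tmem38a, 0.0296 for Rbm24 and 0.0655 for Pkia in limma. In the other direction 2 genes changed. Mmp14, a membrane protease, was higher in BAT here (1.51) and in VMH in cKO SD (-1.12), with an adjusted p of 0.00505 in limma. The other gene changed by more, from 1.25 here to -3.61 in cKO SD, with an adjusted p of 0.0210. The BAT arrays of cKO SD had high signal of muscle genes, and the part of this in the changes of direction was not tested.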
